A study of Saccharomyces cerevisiae with 24 samples.

Results

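The genes described here are the enzymes of amino acid biosynthesis in budding yeast, with the sulfur amino acids left out, together with GCN4, the transcription activator of these pathways. A list of 55 genes was matched by systematic name, and 52 of them were among the 5193 genes measured. TYR1, ASN1 and ASN2 were not analysed here. All 52 passed the filter on low counts, which kept 5142 genes. The genes were chosen by function and not by their values. They fall into 9 groups, which are arginine (6 genes), histidine (6), leucine, isoleucine and valine (10), lysine (7), aromatic amino acids (10), threonine and homoserine (5), serine (4), glutamate and glutamine (3) and GCN4 itself.

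RNA-seq was performed on wild-type Saccharomyces cerevisiae W303 grown in the rich medium YPD with no chemical treatment, after an OT-2 liquid handling robot had pipetted the cultures at 50, 130, 210 or 290 µL/s. By the methods, the robot first put water into 2 mL tubes, in amounts set from absorbance, and then moved the yeast into these tubes. Cells for RNA were collected from 2 mL tubes by centrifugation. There were 24 libraries, 6 at each speed, which were 3 technical replicates (T1, T2 and T3) of each of 2 biological replicates (B1 and B2). The study asked whether pipetting speed affects the yeast. Each biological replicate was 1 culture of the same clone, so p-values measure the spread between libraries and not between many cultures. All groups share the strain, which the methods give as W303-1B with ade2, trp1, can1, leu2, his3 and ura3, so it cannot make leucine, histidine or tryptophan and takes them from the medium. LEU2 and HIS3 were not analysed here.

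When an amino acid runs short, uncharged tRNA activates the kinase Gcn2, general translation slows, and the GCN4 message is translated more through short open reading frames in its leader. Gcn4 then activates genes of most amino acid pathways at once, which is called general amino acid control. Much of this control acts on translation of GCN4, so the level of its mRNA is not a measure of Gcn4 protein. Several pathways also have controls of their own, among them Leu3 for branched-chain amino acids, Lys14 for lysine and the ArgR complex with Arg80, Arg81 and Arg82 for arginine.

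Libraries held between 11555761 and 15464428 expected counts in total. CPM below are counts scaled to a common library size after the library sizes were normalised by TMM, and serve to compare libraries. TPM are the deposited transcript abundances, corrected for gene length, and serve to compare genes. Called means a false discovery rate (FDR) below 0.01 over all 5142 genes by edgeR's quasi-likelihood test, the threshold of the study, and a log2 fold change is given with its standard error (SE). The median Pearson correlation of a library with the others was 0.972 for T3 of B1 at 50 µL/s and at least 0.984 for every other library. Values without that library are given where it matters. The alpha-cell genes STE3 and MF(ALPHA)1 had 324 and 4292 TPM, against 5.55 and 4.43 TPM for the a-cell genes STE2 and BAR1, whereas the genotype in the methods is MATa.

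The amino acid genes were expressed well above the typical gene. The median of their mean TPM was 216.7, against 52.6 for all 5193 genes, and 47 of the 52 lay above that of all genes. GCN4 was the most abundant of the 52, with 1763 ± 122 TPM (SD, n = 24 libraries), a lowest value of 1593 and a highest of 1942 TPM, which ranked 87 among all genes. It was followed by GLN1, glutamine synthetase, with 1156 ± 102 TPM. HOM2, aspartic beta-semialdehyde dehydrogenase on the way to threonine and methionine, had 988 ± 46 TPM. BAT1, the mitochondrial branched-chain aminotransferase, had 926 ± 37.3 TPM, and ILV5, the acetohydroxyacid reductoisomerase of isoleucine and valine synthesis, had 870 ± 135 TPM (SD, n = 24 for each). At the low end stood ARG3, ornithine carbamoyltransferase, with 24.1 ± 5.76 TPM. PHA2, the prephenate dehydratase of phenylalanine synthesis, had 31.7 ± 2.23 TPM, HIS6, an isomerase of the histidine pathway, 33.1 ± 4.4 TPM, ARG8, acetylornithine aminotransferase, 38.0 ± 6.37 TPM, and LYS20, a homocitrate synthase, 47.4 ± 5.54 TPM. These 5 were the genes below the median of all genes. Of the 51 pairs of neighbours in the order of mean TPM, 48 had overlapping ranges over the 24 libraries. The pairs without overlap were GCN4 and GLN1, ARO4 and ARO3, and LYS9 and GLT1.

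**Figure D1:**
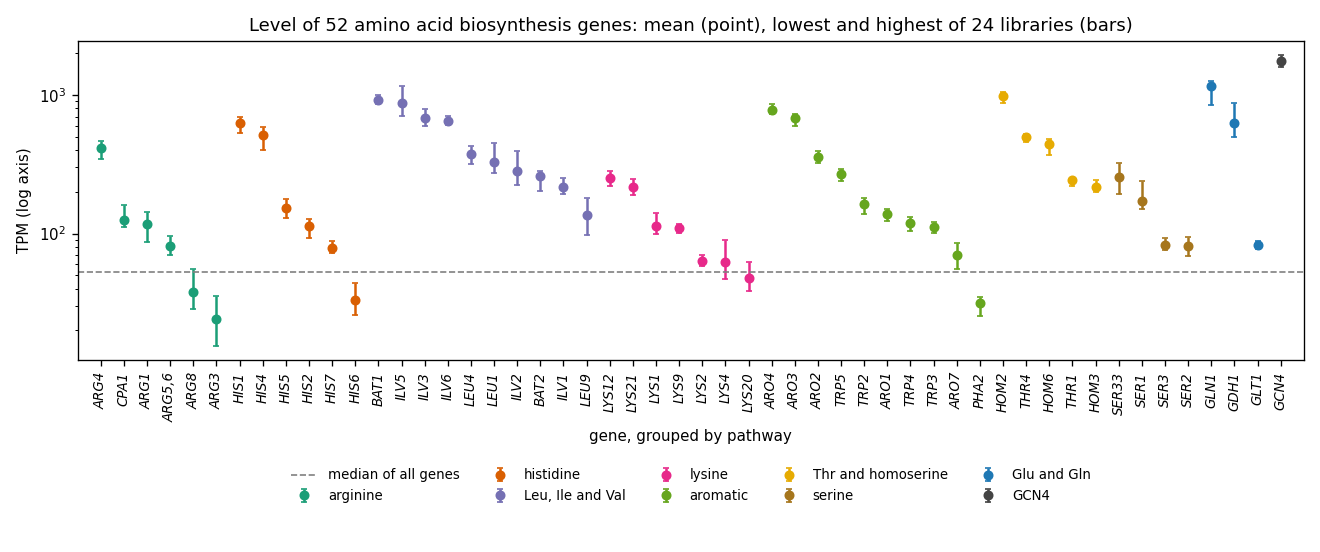
Mean TPM of the 52 genes on a log axis, grouped by pathway, with bars from the lowest to the highest of the 24 libraries and a dashed line at the median of all genes (52.6 TPM). GCN4 stands highest at 1763 TPM and ARG3 lowest at 24.1 TPM, and the pathways span overlapping ranges of level.

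The pathways differed in how much of this mRNA they held. The 10 genes for leucine, isoleucine and valine held 27.4% of the summed TPM of the 52 genes, the 10 aromatic genes 15.8% and the 5 genes for threonine and homoserine 13.8%. Glutamate and glutamine (3 genes) held 10.8%, GCN4 alone 10.2%, histidine (6) 8.82%, lysine (7) 5.02%, arginine (6) 4.65% and serine (4) 3.43%. Within a pathway the enzymes were far from equal. In the arginine pathway ARG4, argininosuccinate lyase, had 417 ± 28.7 TPM, against 24.1 TPM for ARG3, and in the histidine pathway HIS1, the ATP phosphoribosyltransferase of the first step, had 630 ± 39.6 TPM, against 33.1 TPM for HIS6. In lysine synthesis the range ran between LYS20 at 47.4 TPM and LYS12, homoisocitrate dehydrogenase, at 253 ± 13.7 TPM. Among the aromatic genes ARO4, the tyrosine-inhibited DAHP synthase, was highest at 784 ± 34.1 TPM. SER33 was the highest serine gene at 255 ± 27.9 TPM and SER2, phosphoserine phosphatase, the lowest at 81.0 ± 7.51 TPM. In threonine and homoserine synthesis HOM3, aspartate kinase, was lowest with 218 ± 11.4 TPM.

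The levels varied little between libraries. The coefficient of variation over the 24 libraries was between 3.00% and 23.9% with a median of 7.06%, against a median of 8.34% for all genes kept. THR4, threonine synthase, was the steadiest, with 496 ± 14.9 TPM. GLT1, glutamate synthase, had a coefficient of 3.2%. ARG3 varied most, and ARG8 (16.7%), LEU9 (16.3%), GDH1 (16.0%) and ILV5 (15.5%) came next. GCN4 had 6.94%.

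Of speed, culture and technical replicate number, the last gave the most called genes. Neither the labels nor the methods say what sets T1, T2 and T3 apart, and this was not tested. The comparison used a model with speed, biological replicate and technical replicate number, and set the 8 T3 libraries against the 8 T1 libraries. Of the 52 genes 35 were called, 21 higher and 14 lower in T3. The background was high, since 49.3% of all genes were called, 26.2% higher and 23.1% lower. The median log2 fold change of the 52 genes was 0.04, against 0.012 for all genes, and the median of its absolute value was 0.16, against 0.14. Mean fragment length was 184.2 in T3 and 184.6 in T1 libraries, and with it as a covariate the 35 genes were called too. Scaled to total counts, without TMM, 25 were higher and 10 lower, and the median of all genes was 0.06. Of the 35 genes 31 were called with that scaling too, with no change of sign. ARG4, ARO4, ILV6 and TRP5, all lower in T3, were no longer called, and ARO2, SER1, SER2 and TRP2, all higher, were called instead.

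**Figure D2:**
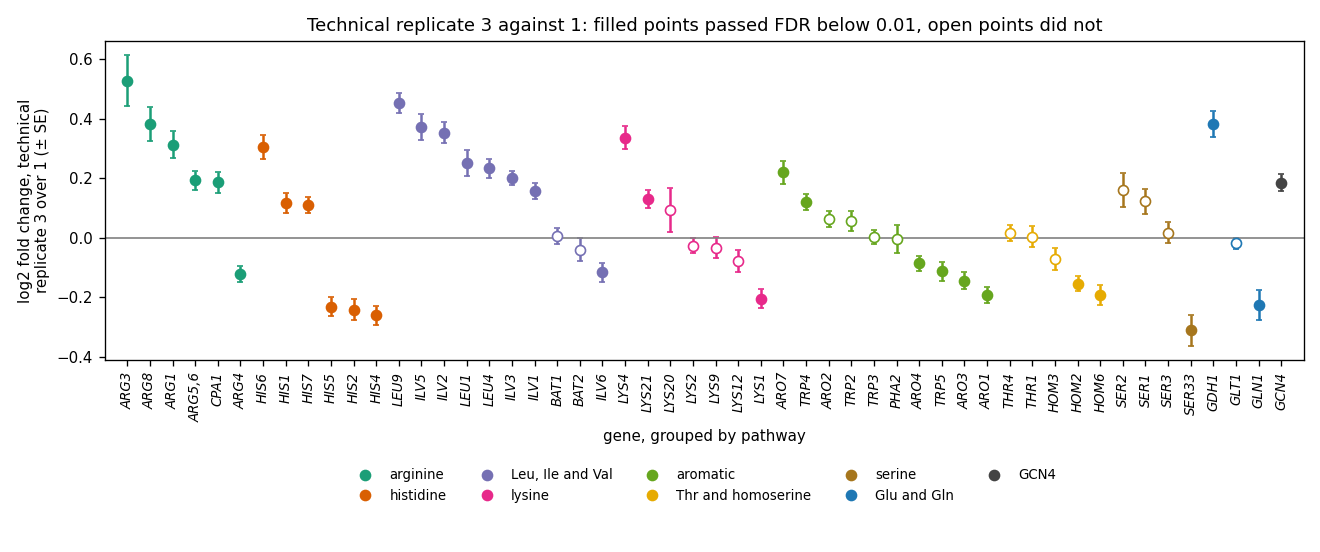
Log2 fold change of T3 over T1 with its standard error for each of the 52 genes, grouped by pathway. Filled points were called and open points were not. ARG3 is highest at 0.53 and SER33 lowest at -0.31, and the arginine genes and those for leucine, isoleucine and valine lie mostly above 0.

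Genes for leucine, isoleucine and valine were mostly higher in T3. Of these 10 genes 7 were called higher and 1 lower, where 26.2% of all genes were called higher and 23.1% lower. Their median log2 fold change was 0.22. LEU9, which encodes the minor of the 2 alpha-isopropylmalate synthases that start leucine synthesis, had 261, 306 and 335 CPM as the lowest, median and highest T3 values, against 186, 224 and 233 CPM in T1. The groups did not overlap, and T3 was higher in 8 of 8 pairs of the same speed and culture, with a log2 fold change of 0.45 ± 0.03 (SE, FDR = 2e-10). ILV5 had 1023, 1184 and 1347 CPM in T3, against 835, 909 and 962 CPM in T1 (0.37 ± 0.04, FDR = 2e-07). ILV2, the catalytic subunit of acetolactate synthase, had 647, 680 and 852 CPM in T3, against 500, 551 and 601 CPM in T1 (0.35 ± 0.04, FDR = 2.8e-08). LEU1, isopropylmalate isomerase, had 833, 860 and 1100 CPM in T3, against 703, 748 and 808 CPM in T1 (0.25 ± 0.04, FDR = 4e-05). These 4 genes, each higher in 8 of 8 pairs, had T3 values wholly above T1. LEU4, the major alpha-isopropylmalate synthase (0.23), ILV3, dihydroxyacid dehydratase (0.20), and ILV1, threonine deaminase (0.16), were called higher too. The T3 values of LEU4 and ILV3 also lay wholly above T1, and those of ILV1 overlapped with T1. ILV6, the regulatory subunit of acetolactate synthase, moved the other way to its partner ILV2, with -0.12 ± 0.03 (FDR = 0.0039, lower in 8 of 8 pairs). BAT1 and BAT2, the mitochondrial and cytosolic aminotransferases of the last step, were not called, with 0.01 ± 0.03 and -0.04 ± 0.04.

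The arginine genes were also mostly higher in T3, with 5 called higher, 1 lower and a median log2 fold change of 0.25. Of all genes 26.2% were called higher and 23.1% lower. ARG3 had 20.9, 29.4 and 34.7 CPM in T3, against 15.03, 20.3 and 22.8 CPM in T1, and showed the largest change of the 52 genes, 0.53 ± 0.09 (FDR = 1.5e-05, higher in 7 of 8 pairs). The groups of ARG3 overlapped by the lowest T3 library alone. ARG8 had 49.3, 54.5 and 68.4 CPM in T3, against 37.2, 43.7 and 47.2 CPM in T1, with no overlap (0.38 ± 0.06, FDR = 6.2e-06). ARG1, argininosuccinate synthetase, had 138, 169 and 178 CPM in T3, against 121, 135 and 140 CPM in T1 (0.31 ± 0.04, FDR = 3.1e-06). ARG5,6, which encodes 2 mitochondrial enzymes of ornithine synthesis as one precursor, had 0.19 ± 0.03 (FDR = 3.2e-05), and CPA1, the small subunit of carbamoyl phosphate synthetase, had 0.19 ± 0.04 (FDR = 8.9e-05). ARG4, the most abundant gene of the pathway, was lower, with 489, 555 and 597 CPM in T3, against 566, 600 and 662 CPM in T1 (-0.12 ± 0.03, FDR = 0.00057).

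Histidine synthesis was split, with 3 genes called higher and 3 lower, where 26.2% of all genes were called higher and 23.1% lower. HIS6 had 24.2, 25.8 and 30.2 CPM in T3, against 18.1, 21.3 and 23.7 CPM in T1 (0.30 ± 0.04, FDR = 1.4e-06), and was higher in 8 of 8 pairs. HIS4, the multifunctional enzyme of several steps, had 1014, 1199 and 1311 CPM in T3, against 1361, 1415 and 1538 CPM in T1 (-0.26 ± 0.03, FDR = 4.7e-07), and was lower in 8 of 8 pairs. HIS2, histidinol phosphatase, had 87.6, 97.8 and 102 CPM in T3, against 108, 114 and 124 CPM in T1 (-0.24 ± 0.04, FDR = 4.7e-06). These 3 genes had no overlap between T3 and T1. HIS5, histidinol-phosphate aminotransferase, was lower by -0.23 ± 0.03 (FDR = 2.9e-06), whereas HIS1 and HIS7, imidazole glycerol phosphate synthase, were higher by 0.12 ± 0.03 and 0.11 ± 0.03.

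Of the 7 lysine genes 2 were called higher and 1 lower. For this pathway and the others of this paragraph, the shares of all genes were 26.2% higher and 23.1% lower. LYS4, homoaconitase, had 129, 153 and 194 CPM in T3, against 105, 125 and 131 CPM in T1 (0.34 ± 0.04, FDR = 1.6e-07, 8 of 8 pairs higher). LYS21 was higher by 0.13 ± 0.03 and LYS1, the saccharopine dehydrogenase of the last step, was lower by -0.20 ± 0.03 (FDR = 1e-05), while the 4 others were not called. Among the aromatic genes 2 were called higher and 4 lower. ARO7, chorismate mutase, had 49.4, 52.6 and 57.4 CPM in T3, against 38.3, 46.2 and 47.9 CPM in T1 (0.22 ± 0.04, FDR = 4.6e-05). ARO1, a single protein with 5 activities of the shikimate pathway, had 644, 690 and 701 CPM in T3, against 741, 782 and 809 CPM in T1 (-0.19 ± 0.03, FDR = 2.3e-06), and ARO3, the phenylalanine-inhibited DAHP synthase, had -0.14 ± 0.03 (FDR = 0.00016). The T3 values of ARO7 lay wholly above those of T1 and the values of ARO1 and ARO3 wholly below. TRP4, an enzyme of tryptophan synthesis, was higher by 0.12 ± 0.03 (FDR = 0.00044). Of the 5 threonine and homoserine genes none was called higher and 2 lower. HOM6, homoserine dehydrogenase, had 376, 425 and 453 CPM in T3, against 456, 488 and 504 CPM in T1 (-0.19 ± 0.03, FDR = 4.4e-05), and HOM2 had 926, 978 and 1008 CPM in T3, against 1040, 1093 and 1129 CPM in T1 (-0.15 ± 0.03, FDR = 3e-05).

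The enzymes that take nitrogen into glutamate and glutamine moved apart. GDH1, the NADP-dependent glutamate dehydrogenase, had 849, 1027 and 1185 CPM in T3, against 721, 780 and 830 CPM in T1 (0.38 ± 0.04, FDR = 1.2e-07), with no overlap and 8 of 8 pairs higher. GLN1, which makes glutamine from glutamate, had 902, 1160 and 1288 CPM in T3, against 1233, 1318 and 1391 CPM in T1 (-0.23 ± 0.05, FDR = 0.0005), and was lower in 7 of 8 pairs. GLT1 was not called (-0.02 ± 0.02). In serine synthesis SER33, a 3-phosphoglycerate dehydrogenase, had 270, 326 and 366 CPM in T3, against 377, 385 and 465 CPM in T1, and was the most lowered of the 52 genes (-0.31 ± 0.05, FDR = 2.6e-05, lower in 8 of 8 pairs). The other 3 serine genes were not called.

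The 17 genes that were not called had log2 fold changes between -0.08 and 0.16. SER2 and SER1, phosphoserine aminotransferase, came nearest, with 0.16 ± 0.06 (FDR = 0.02) and 0.12 ± 0.04 (FDR = 0.015). LYS20 had 0.09 ± 0.07, the largest error of these 17, with 40.7, 44.9 and 58.0 CPM in T3, against 38.1, 43.3 and 49.3 CPM in T1. Among the closest to 0 were TRP3, a bifunctional enzyme of tryptophan synthesis (0.0017 ± 0.02), and THR1, homoserine kinase (0.0031 ± 0.04). THR4 had 754, 781 and 805 CPM in T3, against 718, 788 and 801 CPM in T1 (0.02 ± 0.03). In these 3 genes 3 or 4 of 8 pairs were higher in T3. TRP2, a subunit of anthranilate synthase, and ARO2, chorismate synthase, had 0.06 ± 0.03 each, and LYS12 had -0.08 ± 0.04. The called aromatic genes with the smallest changes were TRP5, tryptophan synthase (-0.11 ± 0.03, FDR = 0.0039), and ARO4 (-0.09 ± 0.03, FDR = 0.0056).

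GCN4 mRNA was modestly higher in T3. It had 1390, 1441 and 1485 CPM in T3, against 1232, 1261 and 1342 CPM in T1, with no overlap (log2 fold change 0.18 ± 0.03, FDR = 6.9e-06, higher in 8 of 8 pairs). The T2 libraries, with 1255, 1346 and 1526 CPM, spanned both. The kinase gene GCN2 (0.04 ± 0.03) and its partners GCN1 (-0.02 ± 0.02) and GCN20 (0.02 ± 0.02) were not called. Of 12 regulators listed beside the 52 genes 3 were called higher and 2 lower, where 49.3% of all genes were called, 26.2% higher and 23.1% lower. ARG80 had 0.43 ± 0.10, BAS1, a regulator of histidine and purine genes, 0.18 ± 0.05, and LEU3 0.12 ± 0.03, whereas GCR1, an activator of glycolytic genes, had -0.34 ± 0.07 and ARG81 -0.12 ± 0.03. Among 20 further enzymes of amino acid metabolism 6 were called higher and 5 lower, against the same 49.3% of all genes. SHM2 and SHM1, the cytosolic and mitochondrial serine hydroxymethyltransferases, had 0.59 ± 0.08 and 0.31 ± 0.03, and GLY1, the threonine aldolase that makes glycine, had 0.27 ± 0.03. ARG7, ornithine acetyltransferase, had -0.33 ± 0.04, LYS5, which activates the Lys2 enzyme, -0.31 ± 0.05, and GDH3, the minor NADP-dependent glutamate dehydrogenase, -0.31 ± 0.04.

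**Figure D3:**
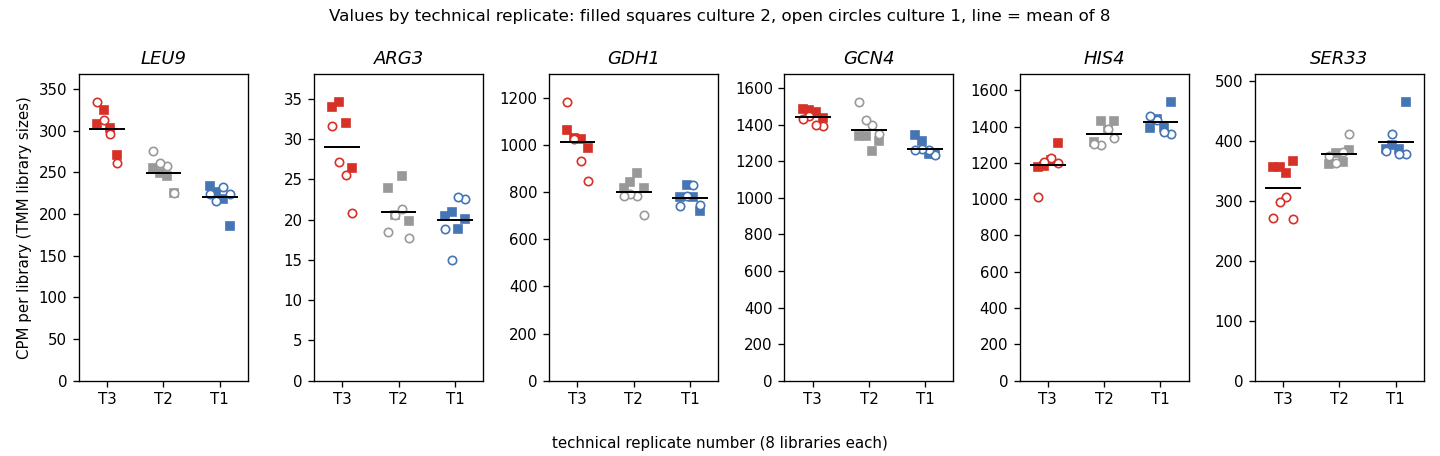
CPM of 6 genes in the 24 libraries, by technical replicate number (red T3, grey T2, blue T1), with a line at the mean of 8 libraries. Filled squares are B2 and open circles B1, and within each number the speeds run from 50 µL/s at the left to 290 µL/s at the right. T3 values lie above all T1 values for LEU9, GDH1 and GCN4 and below them for HIS4 and SER33, and the B1 values of SER33 in T3 lie below those of B2.

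The T3 and T1 values did not overlap in 19 of the 52 genes, 12 with T3 above and 7 with T3 below, against 25.4% of all genes. The direction was the same in both cultures for 35 of the 35 called genes. Within B2 alone 31 of them were called and within B1 alone 19, where 42.7% and 27.9% of all genes were. The 35 genes had been called with these same libraries, so their direction and calls within a culture are no independent support. The shares of all genes, which were not chosen in this way, are no like measure for them. Each of the 24 libraries was left out in turn, and 31 of the 35 genes were called every time. ILV6 and TRP5 were lost without T1 of B1 at 50 µL/s, T1 of B2 at 290 µL/s or T1 of B2 at 130 µL/s, and ARO4 was lost without T1 of B2 at 130 or 50 µL/s. HIS1 was lost without T1 of B1 at 50 µL/s, T1 of B2 at 290 µL/s, T3 of B1 at 130 µL/s or T3 of B2 at 130, 210 or 290 µL/s. Without T3 of B1 at 50 µL/s the 35 genes were called. DESeq2 and limma-voom called these 35 as well.

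T2 lay close to T1 for most of these genes. Of the 52 genes 2 were called between T2 and T1, both higher, and 14 had an unadjusted p under 0.05. Of all genes 4.28% were called at the FDR, 1.77% higher and 2.51% lower, and their share at that unadjusted p is not given here. LEU9 had 225, 252 and 276 CPM in T2, against 186, 224 and 233 CPM in T1 (0.18 ± 0.03, FDR = 0.001, 8 of 8 pairs). ILV3 had 1186, 1261 and 1297 CPM in T2, against 1099, 1136 and 1235 CPM in T1 (0.13 ± 0.02, FDR = 0.001, 8 of 8 pairs). Both belong to the branched-chain pathway, whose median log2 fold change was 0.09, against 0.0011 for all genes. Among genes not called, GCN4 had 0.11 ± 0.03 (FDR = 0.017), LYS4 0.14 ± 0.04 (FDR = 0.024), SER33 -0.07 ± 0.05 and BAT2 -0.07 ± 0.04. Without T3 of B1 at 50 µL/s 4 genes were called, and DESeq2 called 5, in fits whose share of all genes is not given here.

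Between T3 and T2 31 genes were called, 15 higher and 16 lower, against 38.5% of all genes, 20.1% higher and 18.4% lower. This comparison shares its T3 libraries with that of T3 and T1. The arginine genes had 5 higher and 1 lower with a median of 0.19, ARG3 again first with 20.9, 29.4 and 34.7 CPM in T3, against 17.7, 20.6 and 25.5 CPM in T2 (0.46 ± 0.08, FDR = 0.0001). ARG8 had 49.3, 54.5 and 68.4 CPM in T3, against 42.4, 43.8 and 48.3 CPM in T2, the single gene of the 52 wholly above T2 (0.35 ± 0.06). Wholly below T2 were 6 genes, so that 7 of the 52 did not overlap, against 12.7% of all genes. The 6 included HIS2 (-0.26 ± 0.04), ARO3 (-0.18 ± 0.03), HOM6 (-0.18 ± 0.03) and HOM2 (-0.17 ± 0.03). The threonine and homoserine group had 3 genes lower, HOM3 included (-0.14 ± 0.04), and none higher. GCN4 was not called, with 0.08 ± 0.03 (FDR = 0.026).

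Where yeast has 2 genes for the same step, the copies did not always move together. The ratio of TPM of the copies was compared over pairs of libraries with an exact permutation test, with Benjamini-Hochberg adjustment over the 10 tests made. LEU9 over LEU4 averaged 0.392 in T3 and 0.336 in T1, a log2 difference of 0.22 ± 0.10 (SD, n = 8 pairs, positive in 8 of 8, exact two-sided p = 0.0078, adjusted p = 0.039). SER33 over SER3 averaged 2.71 in T3 and 3.39 in T1, a log2 difference of -0.33 ± 0.15 (SD, n = 8, negative in 8 of 8, exact p = 0.0078, adjusted p = 0.039). The value of 0.0078 is the smallest that 8 pairs allow. The test pooled the pairs of both cultures and treats them as independent. By the interaction test given below, LEU4 and SER33 differed between the cultures in how they varied among technical replicates. For BAT2 over BAT1, LYS20 over LYS21 and ARO3 over ARO4 the differences were -0.05 ± 0.11, -0.04 ± 0.16 and -0.06 ± 0.08 (SD, n = 8), with adjusted exact p of 0.31, 0.58 and 0.12. Between 290 and 50 µL/s no ratio passed, with adjusted exact p of 0.12 or more over 6 pairs, where the smallest unadjusted p possible is 0.031. RSEM divides reads that 2 close copies share, so the split of LYS20 and LYS21 and of SER3 and SER33 is uncertain. That of the other pairs, LEU9 and LEU4 among them, may be uncertain too. The share of such reads was not tested.

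The question of the study was the effect of pipetting speed. In its model, count ~ speed + biorep, 0 of the 52 genes were called between 290 and 50 µL/s by edgeR, DESeq2 and limma-voom, and 10 had an unadjusted p under 0.05 by edgeR. Of all genes 0.0389% were called at the FDR, and their share at that unadjusted p is not given here. The median log2 fold change of the 52 genes was -0.05, against -0.01 for all genes, and 18 were positive. LEU9 had the most negative value, -0.23 ± 0.12 (FDR = 0.49), with 186, 225 and 271 CPM at 290 µL/s, against 224, 265 and 335 CPM at 50 µL/s. LYS4 had -0.22 ± 0.09 (FDR = 0.42). ARG4 had the most positive value, 0.14 ± 0.05 (FDR = 0.33), with 528, 620 and 662 CPM at 290 µL/s, against 489, 564 and 599 CPM at 50 µL/s, and LYS1 came next with 0.13 ± 0.06. GCN4 had 1232, 1331 and 1436 CPM at 290 µL/s, against 1262, 1387 and 1526 CPM at 50 µL/s (-0.07 ± 0.06, FDR = 0.63). The ranges of the 2 speeds overlapped in every one of the 52 genes and failed to overlap in 0.311% of all genes.

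Libraries of the same technical replicate number were also taken as a block across speeds. Neither the labels nor the methods say that such libraries belong together. With this block 5 of the 52 genes were called, 1 higher and 4 lower at 290 than at 50 µL/s. Of all genes 4.22% were called, 1.89% higher and 2.33% lower. LEU9 fell by 0.22 ± 0.04 (log2, SE; FDR = 0.00092), ILV2 by 0.21 ± 0.04 (FDR = 0.0031), LYS4 by 0.21 ± 0.04 (FDR = 0.005) and HIS6 by 0.21 ± 0.05 (FDR = 0.0077), each lower in 6 of 6 pairs of the same culture and technical replicate number. ARG4 was higher in 6 of 6 pairs (0.14 ± 0.03, FDR = 0.0081). ILV2 had 500, 552 and 648 CPM at 290 µL/s, against 554, 643 and 852 CPM at 50 µL/s. HIS6 had 18.1, 22.4 and 25.1 CPM at 290 µL/s, against 22.4, 24.8 and 30.2 CPM at 50 µL/s, and LYS4 had 105, 127 and 147 CPM, against 127, 138 and 194 CPM. No pathway had more than 2 called genes. The branched-chain group had a median of -0.10, with 1 of 10 values above 0 (BAT2, 0.04 ± 0.04). GCN4 was not called (-0.08 ± 0.03, FDR = 0.13). limma-voom called the same 5, and DESeq2 called ILV5 in place of HIS6.

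The calls depended on single libraries. Over 24 fits with 1 library left out, LEU9 was called in 24, ILV2 in 22, LYS4 in 18, ARG4 in 15 and HIS6 in 10, and the number of genes called was between 1 and 7. It was 1 without T2 of B1 at 290 µL/s and 2 without T1 of B2, T3 of B1 or T3 of B2 at 290 µL/s or T1 of B2 or T3 of B1 at 50 µL/s. It was 3 without T2 of B1 at 50 µL/s or T2 of B2 at 290 µL/s. Mean fragment length was 182 at 50, 184 at 130, 185 at 210 and 187 at 290 µL/s, and its part in the speed differences with the block was not tested.

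**Figure D4:**
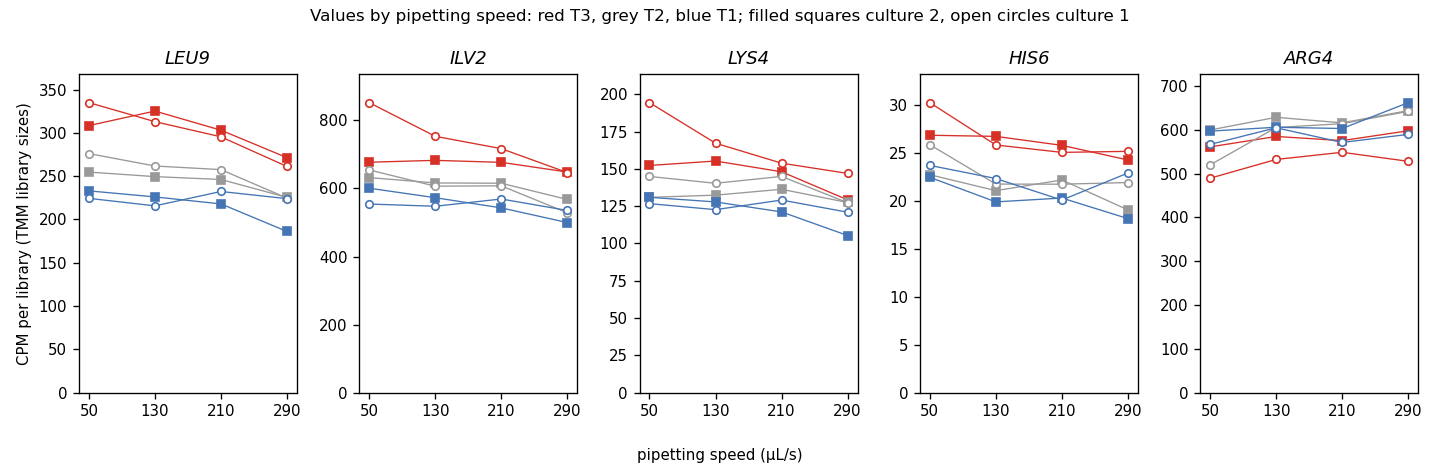
CPM of the 5 genes called between 290 and 50 µL/s with the block, by pipetting speed, with lines joining the libraries of 1 culture and 1 technical replicate number (red T3, grey T2, blue T1, filled squares B2, open circles B1). Each line ends lower at 290 than at 50 µL/s for LEU9, ILV2, LYS4 and HIS6 and higher for ARG4.

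The steps in between were small. At 50, 130, 210 and 290 µL/s LEU9 averaged 272 ± 43.3, 265 ± 45.0, 259 ± 34.2 and 232 ± 30.5 CPM (SD, n = 6 each), and ARG4 averaged 555 ± 43.4, 593 ± 33.0, 588 ± 27.1 and 610 ± 49.3 CPM. ILV2 averaged 662 ± 103, 630 ± 75.8, 622 ± 65.3 and 571 ± 63.0 CPM. Between 210 and 50 µL/s and between 130 and 50 µL/s 0 genes were called by edgeR, with 0% of all genes, and 1 (LYS2, 0.07 ± 0.03) and 0 had an unadjusted p under 0.05. With the block these were 6 and 2 and none was called. For the counts at an unadjusted p in this paragraph the share of all genes is not given here. HIS6 had the most negative value in both, -0.17 ± 0.09 and -0.14 ± 0.09, and ARG4 the most positive, 0.08 ± 0.05 and 0.10 ± 0.05. GCN4 had -0.06 ± 0.06 and -0.02 ± 0.06. In the joint test of any speed 0 of the 52 genes and 0% of all genes were called, and 0 of the 52 had an unadjusted p under 0.05. With the block LEU9 alone was called (FDR = 0.006), against 0.681% of all genes. LEU9 was lost from that test in 17 of 24 fits without 1 library. The 7 that kept it lacked T1 of B1 at any 1 of the 4 speeds, T2 or T3 of B1 at 210 µL/s or T3 of B2 at 130 µL/s. The interaction of speed with technical replicate number called 0 of the 52 genes and 0% of all genes by edgeR, with 2 at an unadjusted p under 0.05. Within T3 alone ILV5, lower in both cultures at 290 than at 50 µL/s with 1023 and 1087 CPM, against 1338 and 1347 CPM (-0.35 ± 0.04, FDR = 0.0051), was the one gene called, where 1.03% of all genes were.

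No gene of the list passed the test between the cultures as a whole. Between B2 and B1 0 of the 52 genes and 0% of all genes were called by edgeR, DESeq2 called 0 of the 52 as well, and 5 had an unadjusted p under 0.05. With the block on technical replicate number this became 13. Still 0 were called, where 0.37% of all genes were, while DESeq2 called ARG4. The shares of all genes at that unadjusted p are not given here. The 6 arginine genes had values between 0.02 and 0.18 with a median of 0.10, all positive, against -0.0011 for all genes. ARG3 had 18.8, 22.4 and 34.7 CPM in B2, against 15.03, 21.1 and 31.6 CPM in B1 (0.18 ± 0.12, FDR = 0.68). ARG1 had 127, 148 and 178 CPM in B2, against 116, 135 and 175 CPM in B1 (0.13 ± 0.07, FDR = 0.54). LYS4 and HIS6 had the most negative values, -0.11 ± 0.07 and -0.09 ± 0.07, and GCN4 had -0.01 ± 0.04. None of these passed the test.

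For some genes the cultures differed in how they varied among technical replicates. The interaction of biological with technical replicate was called in 7 of the 52 genes, against 6.3% of all genes. They were BAT2 (FDR = 0.00057), LEU4 (0.00087), SER2 (0.0019), HOM3 (0.0049), SER33 (0.0054), ILV5 (0.0087) and LYS20 (0.0094). GCN4 lay just outside (FDR = 0.011) and was called by DESeq2 and limma-voom. In T2, LEU4 had 733 to 785 CPM in B2, against 631 to 690 CPM in B1 (4 libraries each). Its means in B2 and B1 were 790 and 789 CPM in T3 and 671 and 672 CPM in T1. Its T2 thus stood with T3 in B2 and with T1 in B1. BAT2 had 296 to 308 CPM in T2 of B2, against 239 to 272 CPM in T2 of B1, and its T2 to T1 difference was 0.05 ± 0.03 in B2 and -0.20 ± 0.03 in B1. SER2 went the other way, with 60.3 to 67.1 CPM in T2 of B2, against 68.8 to 85.0 CPM in T2 of B1. For SER33 it was T3 that differed, with 347 to 366 CPM in B2, against 270 to 306 CPM in B1, and a T3 to T1 difference of -0.19 ± 0.04 in B2 and -0.44 ± 0.06 in B1.

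**Figure D5:**
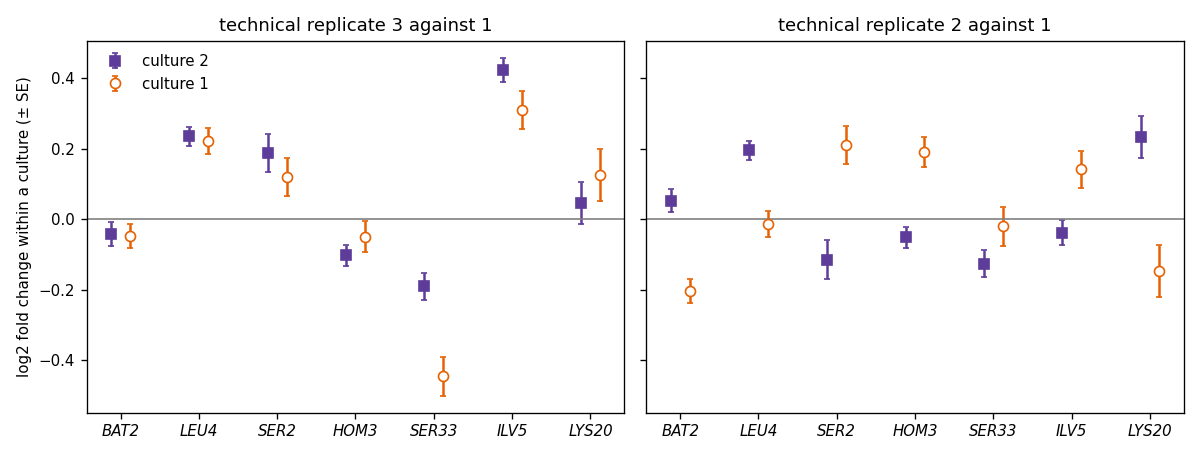
Log2 fold changes with their standard errors within each culture for the 7 genes with an interaction, T3 against T1 at the left and T2 against T1 at the right (filled squares B2, open circles B1). At the right the 2 cultures have opposite signs in each of these genes but SER33, and at the left SER33 differs most, with -0.19 in B2 and -0.44 in B1.

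Within T2 alone 7 genes were called between B2 and B1, against 7.88% of all genes, and within T3 alone 1, SER33, against 2.41%. Higher in B2 within T2 were LYS20 (0.27 ± 0.06), BAT2 (0.23 ± 0.04), ARG1 (0.21 ± 0.04) and LEU4 (0.21 ± 0.04), and lower were SER2 (-0.24 ± 0.05), ILV5 (-0.23 ± 0.04) and HOM3 (-0.16 ± 0.04). Thus genes of 1 pathway, LEU4 and BAT2 on the one side and ILV5 on the other, differed in opposite directions. GCN4 had -0.12 ± 0.04 there (FDR = 0.049). Each group here is 4 libraries of 1 culture, pipetted at 4 speeds. The interaction count was 3 without T2 of B2 at 210 or 50 µL/s or T3 of B2 at 130 µL/s. It was 4 without T1 of B2 at 130 or 50 µL/s, T2 of B1 at 290, 210 or 50 µL/s or T3 of B2 at 50 µL/s. BAT2, LEU4 and SER2 were called in all 24 such fits. With scaling to total counts SER2 and ILV5 were not called for the interaction and TRP2 was, and with fragment length as a covariate ILV5 was not called.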

How the data were processed

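RNA was measured in 24 libraries of 1 yeast strain (poly(A) RNA, stranded kit, paired reads). The authors trimmed the reads with fastp 0.23.2, aligned them to the W303 genome with STAR 2.7.10a and quantified them by strand with RSEM. They deposited, for each library, expected counts (RSEM's estimated reads per gene, not normalized, of which 23.8% are not whole numbers) and TPM (normalized for gene length and library), with gene lengths. The depth of 11555761 to 15464428 counts limits the precision of low genes most. The table of counts for the whole series holds the same values and was not used.

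Speed, biological and technical replicate came from the labels. Expected counts were rounded, genes averaging no more than 1 count were removed, and the other 5142 of 5193 genes were fitted by edgeR 4.0.16 in R 4.3.3 (TMM, quasi-likelihood, Benjamini-Hochberg over all genes, FDR below 0.01) in the study's model. Technical replicate number was added as a term to compare T1, T2 and T3, and interactions were added to that. It was also used as a replicate block for speed and culture, with 1 term shared by both cultures. Deviations of libraries from their group means correlated in each of the 6 pairs of the same culture and number. Their r was 0.16 to 0.642 between 290 and 50 µL/s, 0.403 to 0.693 between 210 and 50 µL/s and 0.452 to 0.779 between 130 and 50 µL/s. Over the 12 pairs of the same number in the same or the other culture, the median r was 0.407, 0.463 and 0.514. The lowest r of these 12 was negative, with -0.182, -0.25 and -0.257. Over the 24 pairs of unlike number the median r was -0.157, -0.236 and -0.274. Deviations from a group mean cancel within the group, so positive r in some pairs goes with negative r in others by construction. Alternatives were DESeq2 size factors, total counts, DESeq2 1.42.0, limma 3.58.1 with voom, no filter or filterByExpr, unrounded counts, an FDR of 0.05, fragment length as a covariate, fits within 1 culture or technical replicate number, and each library left out. DESeq2, limma-voom and left-out libraries with the block were added after the data were seen. The edgeR steps were tested on simulated counts. Ratios of copies were tested in Python 3.11.15 with an exact sign-flip permutation test.

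The genes, lists and tests were chosen with earlier results of these data known. Named are GCN4, every gene called where 15 or fewer are, otherwise up to 4 called genes of a pathway with the largest change, the 2 extremes in each direction and the highest and lowest gene of each pathway by TPM, with a few others named for context. Gene names came from an R64 annotation by systematic name, which matched 5151 genes. Its coordinates and promoters were not used, since the files use another assembly, and the planned motif search was not run.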

Additional observations from a re-analysis of the deposited data

Results flagged for a closer look

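The T3 and the T1 libraries of the 25 genes named for that comparison (50 groups of 8 libraries) and the 290 and 50 µL/s libraries of the 7 genes named for that of speed (14 groups of 6) were searched for a value far from the others of its group. Such a value was found in 9 of the 64 groups. Chance gives about 1 in 20 independent groups, but these genes were named for large differences between the groups and share their libraries, so that rate is no measure for them. All 9 were groups of 8, and the values came from 2 libraries. In T1 of B2 at 290 µL/s SER33 had 465.3 CPM (others 377 to 411), LEU9 186 CPM (216 to 233), LYS4 105.3 CPM (121 to 131), LYS1 155 CPM (124 to 134) and ARO7 38.3 CPM (44.0 to 47.9). In T3 of B1 at 50 µL/s HIS4 had 1014 CPM (others 1179 to 1311), HIS6 30.2 CPM (24.2 to 26.8), LEU1 1100 CPM (833 to 946) and ARO3 629 CPM (682 to 709). The first lay beyond the T1 range on the side away from T3 in each gene, and the second beyond the T3 range on the side away from T1. What sets these 2 libraries apart was not tested.

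In 7 genes the differences among technical replicates were not the same in both cultures by the interaction test of edgeR. Their adjusted p were 0.000572 for BAT2, 0.000869 for LEU4, 0.00188 for SER2, 0.00492 for HOM3, 0.00544 for SER33, 0.00868 for ILV5 and 0.00943 for LYS20.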

How the results depend on the processing

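With technical replicate number as a replicate block, 5 genes were called between 290 and 50 µL/s (0 without it) and 1 in the test of any speed (0 without it), and the block changed no other call. With the block, DESeq2 called 4 genes for any speed and 1 between cultures. Fits within T3 alone called 1 gene between speeds, and fits within T2 and T3 alone called 7 and 1 between cultures, each with fewer libraries. Within B1 alone 19 genes were called between T3 and T1 and 19 between T3 and T2. Between T2 and T1 8 genes were called at an FDR below 0.05, 4 with total counts, 5 with DESeq2 and 1 within B1. The interaction of culture with technical replicate gave 14 genes at an FDR below 0.05. Without 1 library, the count was between 2 and 4 for T2 against T1, 3 and 8 for this interaction, and, with the block, 1 and 7 for 290 against 50 µL/s and 0 and 2 for any speed. The counts in this paragraph are given without the share of all genes beside them. They show how far the calls depend on the processing, and not whether these genes stand out. The causes were not tested.

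A few small log2 values that were not called changed sign. GCN4 between 130 and 50 µL/s was 0.0057 within T3 and between -0.050 and 0.0073 without 1 library, ARG3 there between -0.22 and 0.026, and GLN1 -0.0105 within T1 and between -0.0033 and 0.12. GCN4 between B2 and B1 was 0.028 within T1, 0.051 within T3 and between -0.031 and 0.00071 without 1 library, and between T3 and T2 it was -0.014 within B1. BAT2 between T2 and T1 was 0.053 within B2. Of the other values of named genes under alternatives other than leaving out 1 library, 1007 kept direction and call, 44 lost and 15 gained the call. Over the fits without 1 library 1884 kept both, 26 lost and 3 gained the call, and 7 changed sign.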
